A study of Mus musculus with 10 samples.

Results

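St8sia2, Trp53i11 and Dusp27 had the lowest fitted ratios of Trpm7 cKO to control in an earlier analysis of these muscle satellite cell (MuSC) libraries, and they are described here together with Ncam1 and St8sia4. The 5 genes are 5 of the 24608 gene symbols in the count table, and 4 of them passed the filter on low values, St8sia4 being the exception. St8sia2, Trp53i11 and Dusp27 were chosen by their fitted log2 ratio of Trpm7 cKO to control, so their difference between the genotypes is given as a description without a test. Ncam1 was added because its protein is the main carrier of polysialic acid, and St8sia4 because it encodes the second polysialyltransferase, so both could be tested. Control MuSCs (Trpm7+/+; Pax7CreERT2/+; Rosa26YFP) and Trpm7 cKO MuSCs (Trpm7flox/flox; Pax7CreERT2/+; Rosa26YFP) came from adult, age-matched C57BL6 mice, males and females being used throughout the study. Both genotypes carried the Pax7-driven CreERT2 and the YFP reporter and both received tamoxifen to start recombination in Pax7-expressing cells, and the genotypes differed in the floxed Trpm7 alleles. YFP-positive cells were sorted 3 days after injury of the muscle with cardiotoxin (CTX), 3000 cells for each of 5 control and 5 Trpm7 cKO libraries.

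Polysialic acid is a long, negatively charged chain of sialic acid that is built on the neural cell adhesion molecule NCAM and weakens its adhesion to neighbouring cells. ST8SIA2 and ST8SIA4 are the Golgi enzymes that make this chain, ST8SIA2 mainly during development and ST8SIA4 also in adult tissues. NCAM is carried by MuSCs and myoblasts and is found on regenerating myofibers. Trp53i11 encodes a membrane protein named for its induction by p53. Dusp27, also called Styxl2, encodes a member of the dual-specificity phosphatase family that lacks catalytic activity, is found in striated muscle and takes part in the assembly of sarcomeres.

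St8sia2 (ENSMUSG00000025789) spans chr7:73939119-74013690 of GRCm38, minus strand, and St8sia4 (ENSMUSG00000040710) spans chr1:95587682-95667571, minus strand. Ncam1 (ENSMUSG00000039542) spans chr9:49502136-49798925, minus strand, and its annotated transcripts have 5 separate 3′ ends, which the count table sums. Dusp27 (ENSMUSG00000026564) spans chr1:166098148-166127922, minus strand. Trp53i11 (ENSMUSG00000068735) spans chr2:93187548-93201759, plus strand, on the chromosome that also carries Trpm7, 33.6 Mb away from it. No annotated gene overlapped the last exon of the longest coding transcript of any of the 5 genes. None of the last 500 bases of these transcripts occurred in another gene in stretches of 31 bases, and the antisense gene Gm11149 overlaps Ncam1 outside that exon.

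The promoters of the 3 genes with the lowest ratios differed in the muscle motifs they held. Promoters on GRCm38.p6, from 250 bases before to 50 bases after the start site, were taken from RefSeq for St8sia2, St8sia4, Trp53i11 and Dusp27, and that of Ncam1 was not analysed here. Each promoter was searched on both strands for the E-box CANNTG, for its form CAGCTG, which myogenic factors such as MyoD and myogenin prefer and which is counted among CANNTG as well, for the MEF2 motif and for the p53 half-site. The Dusp27 promoter held a CAGCTG E-box 12 bases and a MEF2 motif 46 bases before the RefSeq start site. By the gene position given above, which came from GENCODE, that E-box lies within the gene and the MEF2 motif before it. These motifs occurred together in 0.478% of the 32851 promoters in the table. No other pair of motifs was counted, so this share is a description only. The St8sia2 and Trp53i11 promoters held none of the motifs searched, while 72.3% of all promoters held CANNTG, 16.3% CAGCTG, 3.19% the MEF2 motif and 8.36% the p53 half-site. The St8sia4 promoter held CAGCTG once, downstream of its RefSeq start site, and the gene start given above falls within this match. Of the 10 other genes that were nearest in profile to the 3 genes or shared their low counts, 8 had a promoter in the table, of which 1, that of Ttn, held a MEF2 motif, of the same letters as in Dusp27, and 1, that of Chrng, held CAGCTG. Rbm24, the gene nearest to Dusp27, held neither. The 30 bases around these matches are shown to place the motifs, in capitals, in their promoters.
Dusp27, E-box, chr1:166127893-166127922, minus strand: gtttcttgttaaCAGCTGtccctcagagca
Dusp27, MEF2 motif, chr1:166127925-166127954, minus strand: gggccagaggCTAAATTTAGagactggcta
Ttn, MEF2 motif, chr2:76982694-76982723, minus strand: ttctgaaaggCTAAATTTAGcactgccaat
St8sia4, E-box, chr1:95667556-95667585, minus strand: cgcccccgagccCAGCTGcagaagaaaccg
A match says only that these letters occur in the promoter, and the absence of one says nothing about binding elsewhere in the gene.

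Control libraries held between 914353 and 1097707 counts, and Trpm7 cKO libraries between 205980 and 581117, so that a single count was worth 0.957 to 1.12 CPM in control and 1.60 to 5.16 CPM in Trpm7 cKO libraries after TMM normalization. Trpm7 itself had 66 to 84 counts per control library and 10 to 55 per Trpm7 cKO library (log2 fold change, or log2FC, of Trpm7 cKO relative to control -0.10 ± 0.20, where the error of a log2FC is its standard error, and adjusted p = 0.716 by the quasi-likelihood test of edgeR, which gave all adjusted p-values here), and counts at the 3′ end do not show whether the floxed part of the gene was removed. The 16 markers of muscle stem cells and myoblasts were all tested, 10 being higher and 1 lower in Trpm7 cKO (62.5% and 6.25%, beside 24.5% and 24.2% of all 7753 tested genes), with a summed level between 2624 and 3177 CPM in control and between 2673 and 5027 CPM in Trpm7 cKO libraries. Pax7, the transcription factor that defines MuSCs, was higher in Trpm7 cKO (199 ± 33.2 against 454 ± 116 CPM, SD, n = 5, adjusted p = 2.20e-05 from the same edgeR test). Markers of other cell types moved as well. The 30 leukocyte markers summed to 434 to 737 CPM per control library and 1574 to 6879 CPM per Trpm7 cKO library. Each of the 22 tested was higher. Some of these passed the filter through the Trpm7 cKO libraries, so that being tested and being higher went together. Ccr2, for example, had 1 to 5 counts per control library and 10 to 63 per Trpm7 cKO library. Cd3e and Cd79a, of T and B cells, were at 0 in all control libraries and had no more than 1 count in any Trpm7 cKO library. The 10 endothelial markers summed to between 6.18 and 62.9 CPM in control and between 114 and 614 CPM in Trpm7 cKO libraries. Of those tested, 2 of 2 were higher, as were 5 of 6 fibroadipogenic and 3 of 3 smooth muscle and pericyte markers. The 2 endothelial markers, Pecam1 and Cdh5, averaged 5.12 and 3.94 CPM in control and also passed the filter largely through the Trpm7 cKO libraries. The summed levels did not depend on the filter. A number of unstated meaning is common to the labels of Trpm7 cKO replicates 4 and 5, which may therefore not be independent samples, and nothing in the sources says whether the others came from separate animals.

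St8sia2 RNA was near the limit of detection in Trpm7 cKO MuSCs. The control libraries had 195, 96, 184, 230 and 89 counts of St8sia2 in replicates 1 to 5, and the Trpm7 cKO libraries had 1, 2, 0, 3 and 1. The lowest control library thus had far more counts than all Trpm7 cKO libraries together, which summed to 7. After TMM normalization the level averaged 159 ± 57.1 CPM in control and 3.06 ± 2.16 CPM in Trpm7 cKO (SD, n = 5 each). With at most 3 counts in each Trpm7 cKO library, this group is at the floor, and St8sia2 was at least 19.1-fold lower when every Trpm7 cKO library is set to 3 counts. At the depth of the Trpm7 cKO libraries, the control mean level corresponds to between 30.8 and 99.3 counts. In bulk RNA, fewer cells with St8sia2 and less St8sia2 RNA in each cell cannot be told apart.

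**Figure D1:**
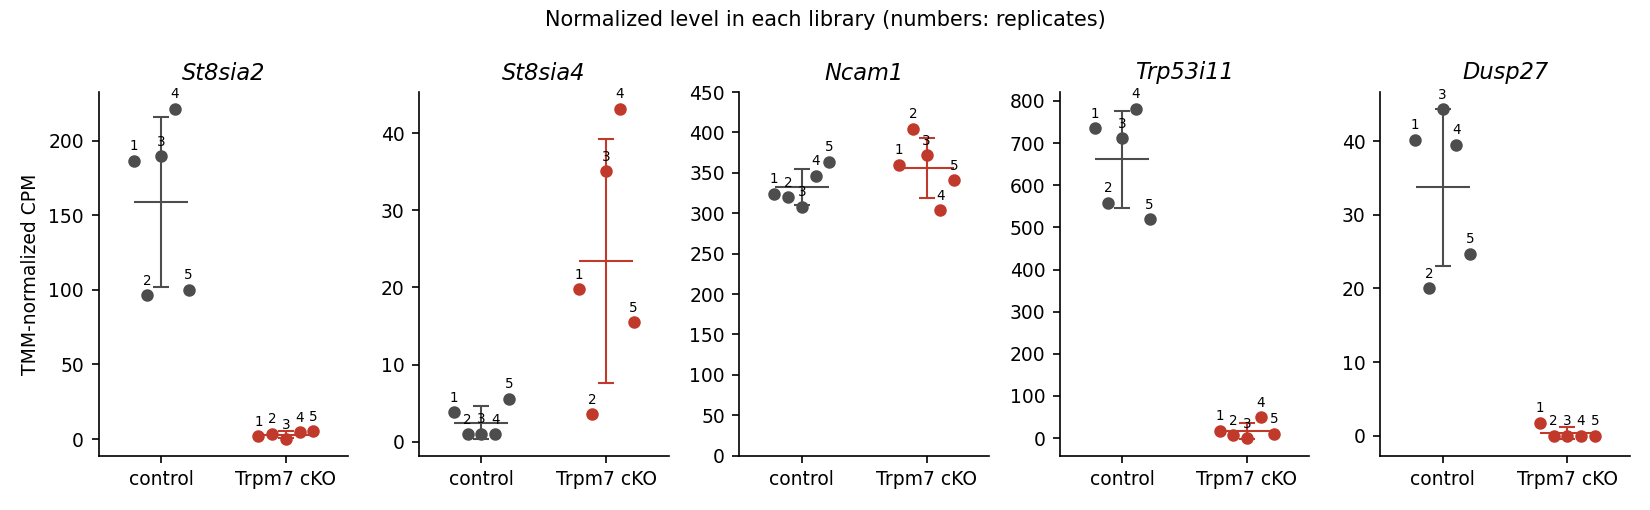
TMM-normalized CPM of the 5 genes (vertical axes) in 5 control and 5 Trpm7 cKO libraries, each point a library with its replicate number, bars the mean and SD. St8sia2, Trp53i11 and Dusp27 are near 0 in Trpm7 cKO libraries, Ncam1 overlaps between the genotypes, and St8sia4 reaches 43.2 CPM in Trpm7 cKO replicate 4.

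St8sia4, the other polysialyltransferase gene, went the opposite way, from few counts in control to more in most Trpm7 cKO libraries. The control libraries had 4, 1, 1, 1 and 5 counts in replicates 1 to 5, and the Trpm7 cKO libraries had 11, 2, 10, 27 and 3. The Trpm7 cKO libraries were not alike, since replicate 2 lay within the control range on the CPM scale, 4 of the 5 lay above all controls, and replicate 4 held 27 of the 53 counts of its group. The normalized level averaged 2.49 ± 2.14 CPM in control and 23.4 ± 15.8 CPM in Trpm7 cKO (SD, n = 5 each), 9.41-fold higher in Trpm7 cKO. Too few libraries had enough counts of St8sia4 for the edgeR filter, which the other 4 genes passed, and its CPM were compared by an exact permutation test, two-sided, which gave p = 0.0238, where 5 libraries against 5 allow no p below 0.00794. With counts thinned to the smallest library, p was 0.0556 (the same exact permutation test). Trpm7 cKO replicate 2 was the only library that overlapped with control, so leaving it out removes the overlap by construction. St8sia4 is also expressed by leukocytes. In the Trpm7 cKO libraries, the 30 leukocyte markers summed to 4066, 1574, 4027, 6879 and 6255 CPM in replicates 1 to 5. Both were lowest in replicate 2 and highest in replicate 4. Replicate 5, next highest for the leukocyte markers, was next lowest for St8sia4, at 15.5 CPM. That value, which also lay above all controls, rests on 3 counts in the smallest library. Control replicates 1 and 5 had more counts, 4 and 5. In control, St8sia4 and the leukocyte markers were both highest in replicate 5, at 5.62 and 737 CPM, while replicate 1, with the next highest St8sia4 at 3.83 CPM, was at 530 CPM. The part of leukocyte RNA in the difference of St8sia4 was not tested.

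**Figure D2:**
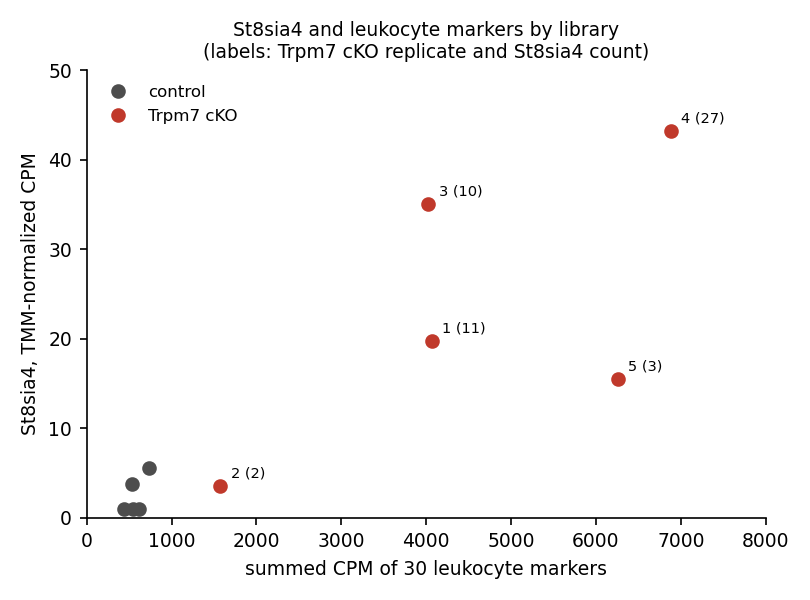
St8sia4 in TMM-normalized CPM (vertical axis) against the summed CPM of 30 leukocyte markers (horizontal axis), 1 point for each of the 5 control and 5 Trpm7 cKO libraries. Trpm7 cKO replicate 4, with 27 counts of St8sia4, is highest on both axes, and replicate 2, with 2 counts, is the Trpm7 cKO library lowest on both.

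Ncam1, the RNA of the substrate, did not differ detectably between the genotypes. Replicates 1 to 5 of the control had 339, 319, 299, 360 and 324 counts of Ncam1, and those of Trpm7 cKO had 200, 228, 106, 190 and 66. The lower counts in Trpm7 cKO followed the smaller libraries, and after normalization the genotypes overlapped, at 333 ± 22.4 CPM in control and 356 ± 37.3 CPM in Trpm7 cKO (SD, n = 5 each). The log2 fold change of Ncam1 was 0.10 ± 0.13 (edgeR adjusted p = 0.554). Its confidence interval, at 95%, reached from 0.888-fold to 1.29-fold, so that a loss of the size seen for St8sia2 lies far outside it. Scaled on the muscle stem cell and myoblast markers in place of TMM, a scaling under which the median over all genes is -0.41, the log2 fold change of Ncam1 was -0.31 (edgeR adjusted p = 0.201), close to that median.

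Taken as a percentage of the Ncam1 counts of the same library, a ratio that does not depend on scaling, St8sia2 amounted to 57.5, 30.1, 61.5, 63.9 and 27.5% in control replicates 1 to 5. In Trpm7 cKO replicates 1 to 5 it amounted to 0.500, 0.877, 0, 1.58 and 1.52%. This ratio restates the difference by which St8sia2 was chosen, on a scale without normalization factors. St8sia4 amounted to between 0.278 and 1.54% of the Ncam1 counts in control and to between 0.877 and 14.2% in Trpm7 cKO libraries, which overlapped.

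The making and transfer of sialic acid was followed through a list of 30 other genes, of which 27 were in the table and 8 were tested. St8sia1, St8sia5 and St8sia6, other genes of the St8sia family, had at most 3 counts in any library and were not tested. Among the 8, 4 were lower in Trpm7 cKO and none was higher (adjusted p below 0.05), beside 24.2% of all tested genes lower and 24.5% higher. With no filter on low counts, 4 members of the list were called higher, beside 2881 of all 21914 genes then tested. The median log2 fold change of the 8 was -0.44, and that of all tested genes -0.01. Cmas, which activates sialic acid by joining it to CMP in the nucleus, fell from 95.6 ± 18.8 to 39.5 ± 9.95 CPM (SD, n = 5, edgeR adjusted p = 2.70e-05).

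Slc35a1, which carries CMP-sialic acid into the Golgi, had a log2FC of -0.80 ± 0.27 (edgeR adjusted p = 0.0176). St3gal1, which places sialic acid on O-glycans, was lower by more, at -2.12 ± 0.23, and St3gal5, which makes the ganglioside GM3, was at -1.08 ± 0.19, both past the threshold. Nans, the synthase of sialic acid, had a log2FC of -0.08 ± 0.28 (edgeR adjusted p = 0.828) and did not pass. Gne, the enzyme that starts the pathway, had 4 to 8 counts per control library and 2 to 7 per Trpm7 cKO library and was not tested. Neu1, the lysosomal sialidase, had 2 to 8 and 3 to 13 counts and was not tested either. On the CPM scale, Gne averaged 6.13 in control and 10.7 in Trpm7 cKO, and Neu1 averaged 4.69 and 18.1. With the leukocyte markers as a covariate, which did not overlap between the genotypes, none of the 8 was called lower, while the count of all genes called lower was 116 in place of 1874.

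Genes related to NCAM or known as its partners moved in both directions. Of 30 listed genes, 29 were in the table and 15 were tested, of which 2 were lower and 7 higher in Trpm7 cKO (13.3% and 46.7%, beside 24.2% and 24.5% of all tested genes). The median log2 fold change was 0.62. When scaled on the muscle stem cell and myoblast markers, 3 were higher, beside 999 of all 7753 tested genes. Nrcam, an adhesion molecule of the L1 family, fell from 135 ± 7.53 to 31.7 ± 29.2 CPM (SD, n = 5, edgeR adjusted p = 5.69e-04). Fgfr1, a receptor that NCAM can engage, rose from 156 ± 19.1 to 378 ± 58.9 CPM (SD, n = 5, edgeR adjusted p = 1.03e-06). Ptk2, a focal adhesion kinase, was the other gene called lower (log2FC -0.71 ± 0.23). The 3 highest of the list were Mcam at 2.15 ± 0.51, Fgfr1 at 1.26 ± 0.15 and Prnp at 1.18 ± 0.22. Mcam is a marker of endothelial cells and pericytes, whose own markers were higher in the same libraries, and their part in its change was not tested.

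Nrp2 and Cadm1 are other proteins known to carry polysialic acid. Nrp2 had a log2FC of -0.03 ± 0.27 (edgeR adjusted p = 0.936) and Cadm1 of -0.55 ± 0.26 (edgeR adjusted p = 0.0925), and neither passed. L1cam, with no more than 8 counts in any library, was not tested, and Ncam2 was not analysed here. Cdh15, the M-cadherin of MuSCs, and Vcam1, another of their surface proteins, did not pass either, with log2 fold changes of 0.11 ± 0.17 and 0.20 ± 0.16.

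Trp53i11 was the one of the 3 genes that left more than a few counts in Trpm7 cKO. The control libraries had 769, 557, 690, 812 and 462 counts in replicates 1 to 5, and the Trpm7 cKO libraries had 10, 4, 0, 31 and 2. All control libraries lay above all Trpm7 cKO libraries, where replicate 4 held 31 of the 47 counts of its group and replicate 3 held none. The level averaged 661 ± 116 CPM in control and 17.0 ± 19.3 CPM in Trpm7 cKO (SD, n = 5 each), 38.9-fold higher in control, with a fitted log2 fold change of -5.02 ± 0.43. Without Trpm7 cKO replicate 4 the fitted value was -6.05. At the control mean level, the Trpm7 cKO libraries would have held between 128 and 413 counts. Replicate 4 was also the library with the most leukocyte markers and the lowest summed muscle stem cell and myoblast markers of its genotype, and the part of either in its Trp53i11 counts was not tested.

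**Figure D3:**
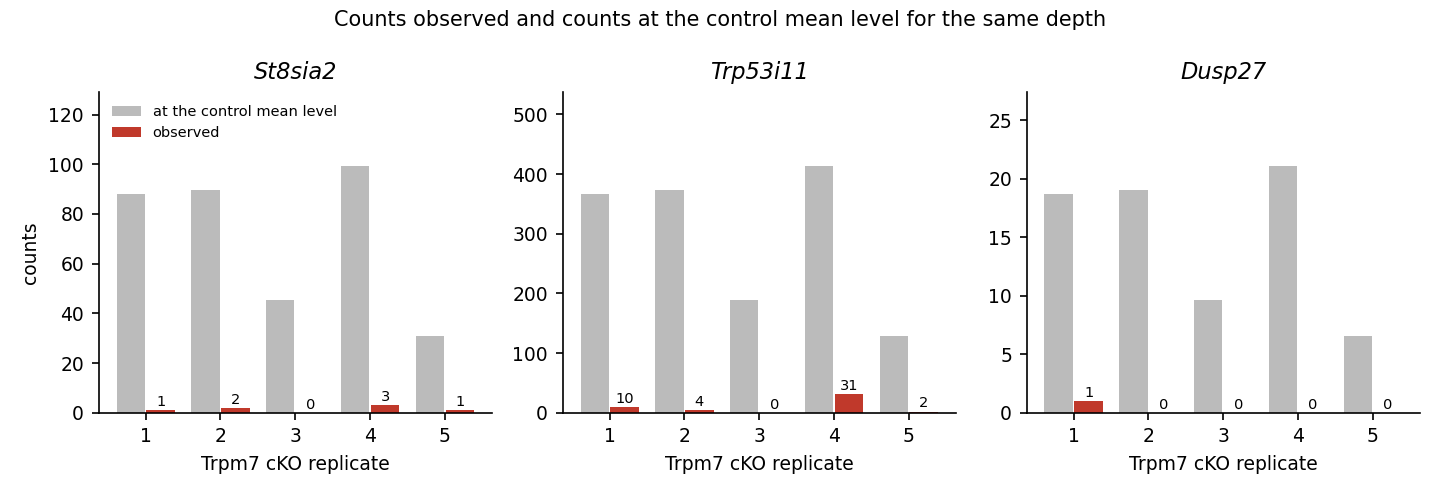
Counts of St8sia2, Trp53i11 and Dusp27 (vertical axes) in the 5 Trpm7 cKO libraries (horizontal axes), red for the counts observed and grey for the counts that the control mean level would give at the same depth. Observed counts stay at or below 3 for St8sia2 and at or below 1 for Dusp27, and reach 31 for Trp53i11 in replicate 4.

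Other genes linked to p53 moved in both directions. The list holds genes named as induced by p53 and also Trp53, which encodes p53 and is among those called lower. All 34 listed genes were in the table and 27 were tested, of which 7 were lower and 9 higher in Trpm7 cKO. These are shares of 25.9% and 33.3%, beside 24.2% and 24.5% of all tested genes. Trp53 itself fell from 480 ± 69.0 to 219 ± 42.1 CPM (SD, n = 5, edgeR adjusted p = 6.46e-06). Cdkn1a, which encodes the cell cycle inhibitor p21, was lower (log2FC -0.65 ± 0.14), and Mdm2, the ubiquitin ligase of p53, had -0.24 ± 0.17 (edgeR adjusted p = 0.241) and did not pass. The lowest of the list was Tigar, a regulator of glycolysis, at -1.52 ± 0.30, followed by Trp53 and by Eda2r, a death receptor, at -1.003 ± 0.23. The highest were Fas, a death receptor also found on leukocytes, at 2.91 ± 0.32, Sesn1, a stress-induced inhibitor of mTORC1, at 2.44 ± 0.34, and Btg2, an inhibitor of proliferation, at 2.26 ± 0.20. Fas passed the filter through the Trpm7 cKO libraries (15 to 34 counts, beside 5 to 9 per control library). Sesn1 had 3 to 22 counts per control library and 12 to 48 per Trpm7 cKO library. Trp53i13, another gene named for induction by p53, had at most 6 counts in any library and was not tested.

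Dusp27 had the fewest counts of the 3 genes, and a single count remained in Trpm7 cKO. The control libraries had 42, 20, 43, 41 and 22 counts in replicates 1 to 5, and the Trpm7 cKO libraries had 1, 0, 0, 0 and 0. Every control library thus had at least 20 counts, and 4 of the 5 Trpm7 cKO libraries had none. The level was 33.7 ± 10.7 CPM (SD, n = 5) in control, and Dusp27 was at least 4.06-fold lower when every Trpm7 cKO library is set to the floor of 3 counts. The bound is smaller than that of St8sia2 because the control mean level would have given only between 6.54 and 21.1 counts in the Trpm7 cKO libraries. The fitted log2 fold change, -5.77 ± 0.62, went to -7.65 without Trpm7 cKO replicate 1, the library with that count.

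Other atypical and slingshot phosphatases of the same family were called at shares near those of all tested genes. Of 22 listed genes, 21 were in the table and 10 were tested, of which 3 were lower and 3 higher in Trpm7 cKO (30% each, beside 24.2% and 24.5%). The median log2 fold change was -0.06. When scaled on the muscle stem cell and myoblast markers, 0 were higher, beside 999 of all 7753 tested genes. Dusp14 had the lowest value, -1.83 ± 0.30 (edgeR adjusted p = 5.01e-05), then Dusp12 at -1.68 ± 0.29 and Dusp22 at -0.69. Ssh2 and Ssh1, slingshot phosphatases that activate cofilin, were higher at 0.86 ± 0.15 and 0.81 ± 0.26, as was Dusp3 at 0.61. Dupd1 and Dusp13, the other muscle phosphatases of the list, had at most 1 count in any library. Styx, another inactive relative, had 5 to 10 counts per control library and 1 to 10 per Trpm7 cKO library and was not tested. It averaged 8.03 CPM in control and 14.9 CPM in Trpm7 cKO.

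Among genes past an adjusted p of 0.05 and a log2 fold change of 1.5, with non-overlapping CPM and a mean of at least 10 CPM, Trp53i11 at -5.02 was the last of the 3 chosen genes. The next were Chrnd at -4.17 ± 0.43, Cavin4 at -3.79 ± 0.44 and Dok7 at -3.77 ± 0.34. Chrnd encodes the delta subunit of the muscle acetylcholine receptor, Cavin4 a caveolar protein of muscle, and Dok7 an activator of the kinase MuSK at the neuromuscular junction. These fitted values depend on the prior count where a group is at the floor, and the bounds are at least 5.22-fold for Chrnd and at least 3.26-fold for Cavin4. The 3 chosen genes belong to the 3.53% of tested genes that were lower past both thresholds and to the 17.9% that were lower without overlap, as their choice requires. In the other direction, 8.42% of tested genes were higher past both thresholds. In the whole table, 5 genes had at most 3 counts in each Trpm7 cKO library and at least 20 in each control library, the lowest control count of Dusp27, a limit chosen after the values were seen. They were St8sia2, Dusp27, Chrnd, Cavin4 and Chrng, which encodes the gamma subunit of the acetylcholine receptor and had between 32 and 54 counts in control libraries.

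**Figure D4:**
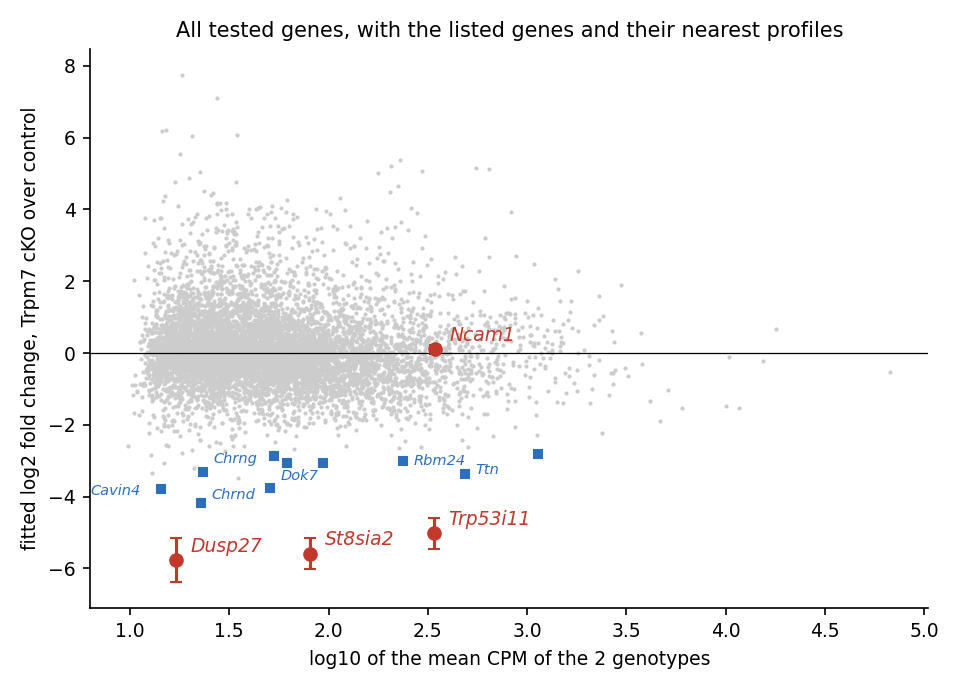
Fitted log2 fold change of Trpm7 cKO over control (vertical axis) against the log10 of the mean CPM of both genotypes (horizontal axis), grey for the 7753 tested genes, red with the standard error for the listed genes and blue squares for the genes nearest in profile to Dusp27, St8sia2 and Trp53i11, with Chrng and Cavin4. Dusp27, St8sia2 and Trp53i11 lie lowest, at -5.77, -5.59 and -5.02, and Ncam1 lies at 0.10.

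Likeness of profile was measured as the root mean square distance between log2 CPM, each gene relative to its control mean, over the 10 libraries. Since the distance spans both genotypes, the neighbours of a gene chosen for its low ratio are largely other genes that were much lower in Trpm7 cKO, and the order is a description. Among each other, St8sia2 was at 0.964 from Trp53i11 and at 1.04 from Dusp27, and Trp53i11 at 1.79 from Dusp27, and the 5 genes are left out of the neighbours that follow. The other genes nearest to St8sia2 were Chrnd at 1.13 and Ttn, which encodes the giant sarcomere protein titin, at 1.23, followed by 1700012B09Rik, Dok7 and Rbm24 at up to 1.42. The nearest to Dusp27 were Rbm24, a regulator of muscle splicing, at 0.491 and Ttn at 0.562, followed by 1700012B09Rik, Gal and Sh3rf1 at up to 0.622. Dusp27 and St8sia2 are at the floor in Trpm7 cKO, where their log2 CPM rest largely on the prior count of 2. The fitted log2 fold changes of Rbm24 and Ttn were -3.01 and -3.38, beside -5.77 for Dusp27, so these small distances partly reflect the prior count. Nearest to Trp53i11 were Chrnd at 1.91 and then 1700012B09Rik, Egln3, Ttn and Dok7 at up to 2.12. The genes nearest to Ncam1 were Rps13 and Rps3a1, of the ribosome, with Arf4, Csnk1a1 and Nup205, at 0.0595 to 0.105. St8sia4 was not tested and has no such list.

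Ttn fell from 885 ± 77.5 to 86.3 ± 31.5 CPM (SD, n = 5). Rbm24 fell from 425 ± 32.9 to 51.9 ± 6.42 CPM (SD, n = 5). Both genes are named as neighbours of genes chosen for a low ratio. Their difference between the genotypes is therefore given as a description without a test.

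Genes of muscle differentiation were lower as a group. Of 46 listed genes, 43 were in the table and 29 were tested, of which 20 were lower and 3 higher in Trpm7 cKO (69.0% and 10.3%, beside 24.2% and 24.5% of all tested genes), with a median log2 fold change of -1.37. With the leukocyte covariate, whose values do not overlap between the genotypes, 7 were lower, beside 116 of all 7753 tested genes. Chrnd, Ttn and Chrng were the lowest, Chrng at -3.31 ± 0.39. Myod1 and Myog, the transcription factors of myoblast commitment and differentiation, had log2 fold changes of -2.01 ± 0.16 and -2.004 ± 0.17. Tnni1, the slow troponin I, at 2.08 ± 0.39, and Mef2c at 1.39 ± 0.38 were higher, with Myh9. Tnni1 passed the filter through the Trpm7 cKO libraries (3 to 23 counts, beside 2 to 10 per control library). Mef2c had 7 to 18 counts per control library and 4 to 43 per Trpm7 cKO library. Mef2c is also expressed by leukocytes and endothelial cells, and their part in its change was not tested.

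STYXL2, the product of Dusp27, is known to promote the removal of non-muscle myosin proteins while sarcomeres form. The RNA of these myosins does not report on that removal, and neither was called lower. Myh9, a non-muscle myosin heavy chain, rose (log2FC 0.48 ± 0.14, edgeR adjusted p = 0.00881), and Myh10 had 0.33 ± 0.20 (edgeR adjusted p = 0.179). The part of other cell types in these values was not tested. Scaled on the muscle stem cell and myoblast markers, 1 gene of the differentiation list was called higher in place of 3. Over all tested genes it was 999 in place of 1897. Unc45b, a chaperone of myosin, had 1 to 9 counts per control library and no more than 4 per Trpm7 cKO library and was not tested. It averaged 4.23 CPM in control and 4.45 CPM in Trpm7 cKO.

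**Figure D5:**
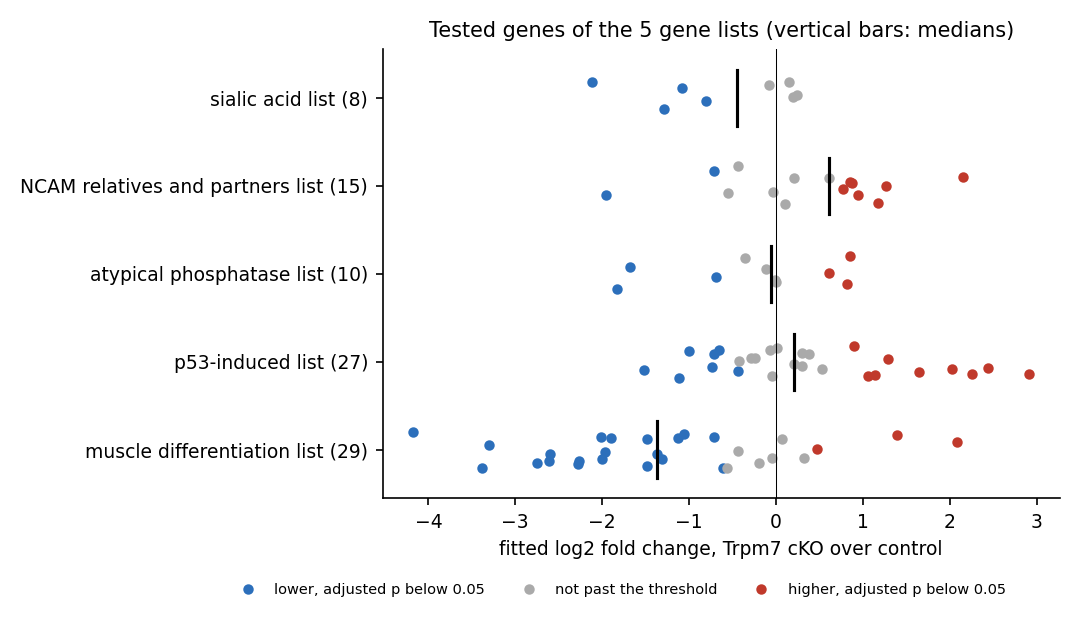
Fitted log2 fold change of Trpm7 cKO over control (horizontal axis) for each tested gene of the 5 lists (rows, with the number tested), coloured by whether it passed an adjusted p of 0.05, with the median as a vertical bar. The medians lie at -0.44, 0.62, -0.06, 0.21 and -1.37 from the sialic acid list to the muscle differentiation list.

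Within the control genotype, which the choice of the genes did not compare, the 3 genes with the lowest ratios had the same lowest libraries. Replicates 2 and 5 were the lowest libraries for each of St8sia2, at 96.2 and 99.97 CPM, Trp53i11, at 558 and 519 CPM, and Dusp27, at 20.05 and 24.7 CPM. The other control libraries lay between 187 and 221 CPM for St8sia2, between 711 and 782 CPM for Trp53i11 and between 39.5 and 44.3 CPM for Dusp27. Of the 4 genes that passed the filter, St8sia2 varied most, with a coefficient of variation of 35.9%, beside 31.6% for Dusp27, 17.5% for Trp53i11 and 6.75% for Ncam1. Ncam1 did not share this order, being highest in replicate 5, at 364 CPM. The muscle differentiation genes summed to 5021, 4878, 5850, 5916 and 5635 CPM in control replicates 1 to 5, lowest in replicate 2 but not low in replicate 5. The leukocyte markers summed to 615 and 737 CPM in replicates 2 and 5 and to 434 to 542 CPM in the other control libraries, and their part in the order was not tested. Replicates 2 and 5 also differed from the other control libraries over all genes with enough counts. The chi-square per degree of freedom between the counts of 2 libraries was 3.45 to 5.25 across these sets. It was 1.40 to 2.15 among replicates 1, 3 and 4, and 2.57 between replicates 2 and 5. The order was thus not shown to be particular to the 3 genes, and with 5 control libraries it is a description only.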

How the data were processed

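RNA of 3000 sorted cells per library was made into CEL-Seq2 libraries, which read the 3′ end of transcripts. The authors extracted unique molecular identifiers (UMIs) with UMI-tools 1.1.4, trimmed reads with Trim Galore 0.6.10, aligned them with HISAT2 2.2.1 to GRCm38, assigned them to genes with featureCounts 2.0.6, removed UMI duplicates and deposited raw counts without normalization. The annotation and strand setting of that step are not given in the sources used here. Where a symbol had a further line (12 symbols), the entry with the larger total was used. The Trpm7 cKO libraries held fewer counts than the control libraries, so 1 count weighs more in them.

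The counts were fitted in R 4.3.3 with edgeR 4.0.16, using filterByExpr (minimum count 10, minimum total 15, 7753 genes kept), TMM factors and robust quasi-likelihood F tests, p-values being adjusted by Benjamini-Hochberg over all tested genes, and genotype as the only term. The study compared the genotypes with DESeq2, whose design terms its methods do not name. Genes with an adjusted p below 0.05 were called. A gene with few counts in control can pass the filter through the Trpm7 cKO libraries alone, which favours a higher call. CPM use the TMM-scaled library size. The standard error was taken from the F statistic. The fit was tested on simulated counts with known changes. Groups in which no library exceeds 3 counts are taken to be at the floor. A fold against them is a bound with every library set to 3 counts. It includes neither counting error nor the spread between libraries. Distances between profiles used log2 CPM with a prior count of 2. Permutation tests were exact and two-sided. P-values measure the spread between these libraries, which may be technical.

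The genes named are the 5 listed genes, the 3 next lowest, the 5 nearest in profile to each tested gene, the 3 lowest and 3 highest called genes of each list, markers, and anchor genes of each pathway. The members and lists were chosen with earlier results of these data known. Both genotypes number their libraries 1 to 5, but same-numbered libraries did not deviate together (correlations of deviations -0.118 to 0.181), so they were not treated as pairs. Alternatives were RLE factors, total counts, scaling on muscle stem cell markers, no filter, DESeq2 1.42.0, counts thinned to the smallest library, a replicate block, a leukocyte covariate and each library left out. Gene positions came from GENCODE M21, which holds 23986 of the 24608 symbols, and promoters from RefSeq (GRCm38.p6).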

Additional observations from a re-analysis of the deposited data

Results flagged for a closer look

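Of 16 groups of 5 libraries examined, covering the CPM of the 5 genes and the summed levels of the muscle stem cell, leukocyte and muscle differentiation genes in each genotype, 1 held a library far from the others by Dixon's ratio. In Dusp27, Trpm7 cKO replicate 1 had 1 count while the other libraries of its genotype had 0, so that the gap took up the whole range (ratio 1). A single count separates this library from the others, and chance flags about 1 in 20 groups.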

How the results depend on the processing

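St8sia2, Trp53i11 and Dusp27 were lower in Trpm7 cKO under every alternative that gave a value, and thinning left Dusp27 below the filter. With the leukocyte covariate, whose values do not overlap between the genotypes, their log2 fold changes were -2.518, -6.437 and -2.621, and St8sia4 had no value. Leaving out 1 library at a time, the values ran from -5.905 to -5.397 for St8sia2, from -6.047 to -4.757 for Trp53i11 and from -7.645 (without Trpm7 cKO replicate 1) to -5.425 for Dusp27.

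Ncam1 turned to -0.311 when scaled on muscle stem cell and myoblast markers and to -0.1039 with no filter, where the median of all genes was 0.167, and was between 0.03714 and 0.1455 with 1 library left out, past the threshold in none of these. St8sia4 was at a log2 ratio of 2.914 after thinning (exact permutation p = 0.0556). Its range with 1 library left out was 2.877 to 3.787. It had no value from DESeq2 on filtered genes.

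The replicate block, whose numbers did not pair the libraries, gave St8sia4 3.234 (exact permutation p = 0.0625, the smallest possible with 5 pairs) and left every count of called genes within 1.5 times. Of the 5 numbers, only in replicate 5 did the control library correlate best with the Trpm7 cKO library of its own number.

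Counts of called genes depended on the setting, and the number of genes tested changed with the filter, with thinning and with a library left out. Elsewhere it stayed at 7753. Scaled on muscle stem cell and myoblast markers, 2829 genes were called lower and 999 higher, with 3 of the NCAM list, 0 of the phosphatase list and 1 of the muscle list higher. With no filter, 2881 of 21914 tested were higher, with 4 of the sialic acid list and 12 of the NCAM list. DESeq2 with no filter, added after seeing the data, also called 4 of the sialic acid list higher, beside 2628 of all genes. After thinning, 889 were lower and 942 higher of 3907 tested. The NCAM list then had 1 lower and 3 higher, and the phosphatase list 0 lower. The p53 list had 4 lower and 5 higher, and the muscle list 8 lower and 1 higher. With the leukocyte covariate, 116 were lower and 354 higher, with 0 lower in the sialic acid list, 1 lower and 0 higher in the NCAM list, 0 lower and 0 higher in the phosphatase list, 0 lower and 5 higher in the p53 list and 7 lower and 1 higher in the muscle list. Leaving out 1 library, the sialic acid list had 0 to 3 higher (3 without Trpm7 cKO replicate 2, with 8505 genes tested). The NCAM list had 1 to 2 lower (1 without Trpm7 cKO replicate 1, with 8469 genes tested). Apart from the fewer genes or counts tested under the filter and thinning, the cause of these differences was not tested. At the depth of the smallest library, Dusp27 was below the filter, and many listed genes had too few counts in either genotype to be tested.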
